A study of Mus musculus with 6 samples.

Results

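Neural progenitors of the adult subventricular zone give rise to neuroblasts, the young neurons that migrate towards the olfactory bulb. The 9 genes described here mark that step: the homeobox genes Dlx1, Dlx2 and Dlx5, the SoxC transcription factor genes Sox4 and Sox11, the surface protein gene Cd24a, and the cytoskeletal genes Dcx, Stmn2 and Tubb3. They were chosen by name, as genes of neuroblasts and of commitment to the neuronal lineage, and their probes were found through the gene symbols and synonyms of the platform annotation. This gave 19 probes for 9 genes, out of 45281 probes and 19057 named genes on the arrays.

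DLX homeodomain factors act in the precursors of GABAergic interneurons, which the subventricular zone makes throughout life. SOX4 and SOX11 act in cells that leave the progenitor state and switch on neuronal genes. Doublecortin (Dcx), stathmin 2 (Stmn2) and class III β-tubulin (Tubb3) belong to the microtubules of young neurons and are used to recognise neuroblasts in tissue and in culture.

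RNA came from neurospheres, floating clusters formed by neural stem and progenitor cells, on 6 Illumina MouseWG-6 arrays of 1 beadchip. Per the labels, cells of the subventricular zone of mice aged 18 months were grown untreated with EGF and FGF and harvested as spheres after 14 days in culture. The genotypes were wt and Wip1Tg, a transgenic for the phosphatase Wip1 (gene Ppm1d), and the spheres were primary or secondary, the latter usually being grown from dissociated primary spheres. There were 1 wt and 2 Wip1Tg primary arrays, and 2 wt and 1 Wip1Tg secondary arrays. The sources used here do not give the strain or the promoter that drives the transgene. Whether replicate arrays stem from separate mice or cultures is not said either, so the p-values speak only of the spread among these samples.

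Between 38.9 and 41.3% of the probes were above background (detection p under 0.05) on each array. Across tested probes, replicate arrays correlated at 0.989 to 0.990 and primary with secondary arrays at 0.939 to 0.951. The labels call the mice gender matched, but Xist, the RNA made by an inactive X, gave signal with all 4 of its probes (log2 intensities of 7.51 to 9.87) on every secondary array and on Wip1Tg primary 2, and with none on wt primary 1 or Wip1Tg primary 1. The Y-linked gene Kdm5d (ILMN_1224210) was above background only on those last arrays, at 6.82 and 6.32. The arrays without Xist signal were thus both primary, and each difference called for the 9 genes is also given from the 4 arrays with Xist signal. Ppm1d itself (ILMN_3133522) stood at 9.29 on the wt primary array against 9.53 and 9.71 on the Wip1Tg primary arrays, and at 10.13 and 9.98 on the wt secondary arrays against 10.24 on the Wip1Tg secondary array. Its genotype difference was 0.26 ± 0.13 (SE) on the log2 scale (limma adjusted p = 0.574), higher in Wip1Tg on every array within each passage but not past the threshold.

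Of the 19 probes, 5 were above background on all 6 arrays, 5 on 1 or 2 arrays and 5 on none. A test was made only for probes above background on at least 3 arrays, which left 9 probes of 6 genes. Dlx5, Cd24a and Tubb3 had no tested probe. Values below are background-corrected, quantile-normalised log2 intensities; all differences are on that log2 scale, secondary minus primary or Wip1Tg minus wt. A level is compared between arrays for the same probe and never between probes. Statements that passages do not overlap, or that Wip1Tg arrays lie above wt arrays, only describe the values. The share of all tested probes that separate in this way was not counted. For passage, 39.7% of all tested probes had an unadjusted p under 0.05 in limma, and for genotype 9.51%.

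**Figure D1:**
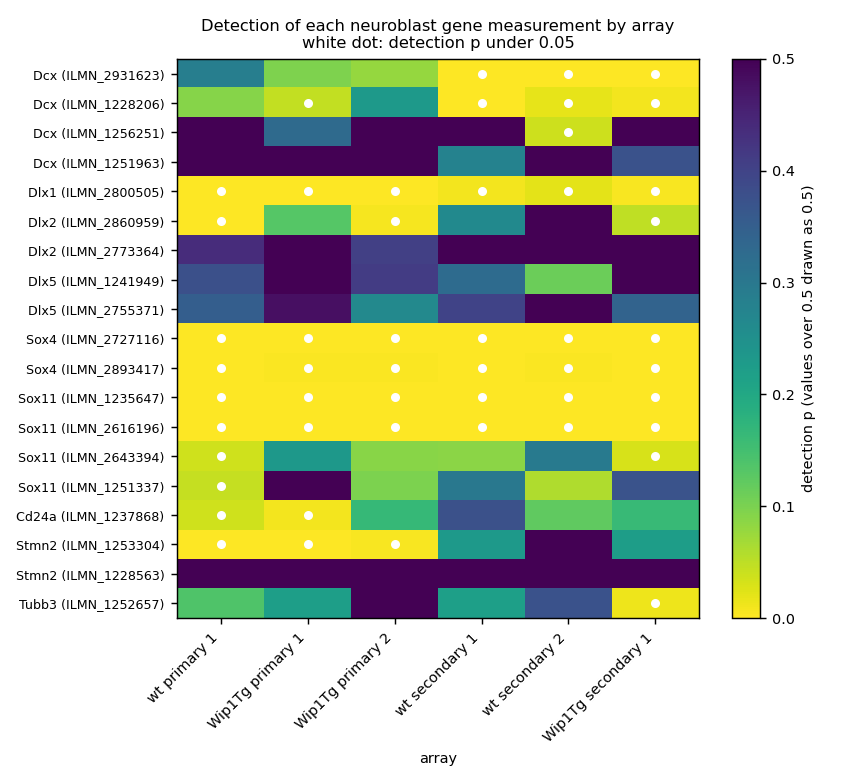
Detection p-value of each of the 19 probes (rows) on each of the 6 arrays (columns), with values over 0.5 drawn as 0.5 and a white dot where the p-value was under 0.05. The 5 probes with a dot on every array belong to Dlx1, Sox4 and Sox11, while a Dcx probe has dots on the 3 secondary arrays alone and a Stmn2 probe on the 3 primary arrays alone.

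Promoter windows from RefSeq (build GRCm38.p6, 250 bases before to 50 bases after the annotated start) were matched for 6 of the 9 genes. Those of Dcx and Dlx1, which differed with passage in opposite directions, and of Sox4 and Sox11, related factors detected in every sample, are printed 5′ to 3′. Capitals mark matches to the motifs searched on both strands: the E-box CANNTG of basic helix-loop-helix factors with its subset CAGCTG, the homeodomain core TAATTA, the SOX core ACAAAG, the TCF core CTTTGAT and the TATA letters TATAAA.
Dcx, chrX:143933170-143933469, minus strand: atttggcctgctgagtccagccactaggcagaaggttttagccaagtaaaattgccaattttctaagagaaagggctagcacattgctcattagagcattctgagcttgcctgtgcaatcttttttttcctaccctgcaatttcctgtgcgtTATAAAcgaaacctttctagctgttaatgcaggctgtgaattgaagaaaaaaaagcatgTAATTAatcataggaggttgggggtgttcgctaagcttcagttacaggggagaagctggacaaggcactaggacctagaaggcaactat
Dlx1, chr2:71529195-71529494, plus strand: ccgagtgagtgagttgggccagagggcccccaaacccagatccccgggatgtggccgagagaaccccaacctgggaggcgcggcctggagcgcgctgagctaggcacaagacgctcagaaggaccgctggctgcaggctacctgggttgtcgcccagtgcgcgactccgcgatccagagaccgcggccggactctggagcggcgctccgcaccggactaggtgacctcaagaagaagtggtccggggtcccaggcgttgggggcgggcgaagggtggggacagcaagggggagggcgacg
Sox4, chr13:28953650-28953949, minus strand: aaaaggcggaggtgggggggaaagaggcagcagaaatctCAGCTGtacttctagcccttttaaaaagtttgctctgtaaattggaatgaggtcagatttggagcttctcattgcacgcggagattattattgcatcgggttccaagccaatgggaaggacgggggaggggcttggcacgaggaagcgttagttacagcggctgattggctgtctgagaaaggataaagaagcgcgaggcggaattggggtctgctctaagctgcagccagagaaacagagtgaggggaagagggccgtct
Sox11, chr12:27342669-27342968, minus strand: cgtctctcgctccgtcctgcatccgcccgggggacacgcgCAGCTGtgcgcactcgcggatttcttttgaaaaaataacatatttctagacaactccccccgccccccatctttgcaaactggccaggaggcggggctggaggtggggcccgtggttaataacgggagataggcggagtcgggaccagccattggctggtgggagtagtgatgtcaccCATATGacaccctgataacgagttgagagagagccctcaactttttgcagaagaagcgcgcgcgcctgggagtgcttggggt

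The Dcx window holds TATAAA from base -98 and TAATTA from base -39 relative to the start, letters found in 13.6% and 5.29% of all 32851 windows of that length. The Sox4 window holds CAGCTG at -211 and the Sox11 window holds it at -210, with a second E-box at -32. CAGCTG occurs in 16.3% and any CANNTG in 72.3% of all windows, and the Dlx1 window holds none of the motifs. ACAAAG, in 18.7% of windows, was found among these genes only in a second Dcx window that starts further downstream, and CTTTGAT, in 3.73%, in none. The Dcx window has 43% G and C, lower than all but 16.5% of windows, whereas the others have 52% (Sox4), 58.7% (Sox11) and 69.3% (Dlx1) against a median of 52.7%. A match is a run of letters and was not tested as a binding site.

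Dcx encodes doublecortin, the microtubule-binding protein of migrating neuroblasts, and it was higher in secondary spheres. The brightest of its 4 probes (ILMN_2931623) read 4.91 on the wt primary array, 5.18 on Wip1Tg primary 1 and 5.18 on Wip1Tg primary 2, none of them above background. It read 6.75 on wt secondary 1, 6.39 on wt secondary 2 and 6.39 on the Wip1Tg secondary array, all above background. The passages did not overlap, and within secondary spheres the Wip1Tg array matched wt secondary 2. The probe passed the detection filter through the secondary arrays alone. The separation and the p-value that follows thus describe the probe and are no independent support for a passage difference. The passage difference was 1.43 ± 0.17 (SE, 95% interval 1.04 to 1.83, limma adjusted p = 0.00214). Because the primary arrays were below background, a bound was taken for the fold difference. In it each primary array enters with its own value or, if higher, with the dimmest value that any detected probe had on it. With the processing used for the values above (the main setting), the group mean of secondary spheres was at least 2.36-fold higher. That figure carries no sampling error and is no minimum under other processing. The fitted log2 difference was 0.88 with an offset of 50 and 0.46 without background correction. In bulk RNA, more cells of a type and more RNA per cell cannot be told apart.

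Within a genotype, passage sets 1 array against 2, and the spread is taken from the other groups. The fitted Dcx differences, both against primary arrays below background, were 1.66 in wt and 1.21 in Wip1Tg (limma adjusted p = 0.0144 and 0.0262, with 9.71% and 13% of all probes called). The difference between these, -0.44 ± 0.29, did not pass the test (adjusted p = 0.638). A second probe (ILMN_1228206) read 5.16, 5.30 and 4.96 on the wt primary, Wip1Tg primary 1 and Wip1Tg primary 2 arrays, with only Wip1Tg primary 1 above background. It read 6.81 and 5.78 on wt secondary 1 and 2 and 5.77 on the Wip1Tg secondary array. These values again did not overlap between passages, but the spread among the secondary arrays was wide and the difference of 0.89 ± 0.30 missed the threshold (limma adjusted p = 0.0696), passing it in 3 of 15 alternatives. Of the remaining Dcx probes, ILMN_1256251 was above background on wt secondary 2 alone, at 5.42, and ILMN_1251963 on no array. Dcx lies on the X chromosome. On the 4 arrays with Xist signal, of which Wip1Tg primary 2 is the only primary one, the passage difference was 1.21 (limma adjusted p = 0.055), and the call was also lost without moderation of the variances (adjusted p = 0.0551).

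Dlx1, a homeobox gene of interneuron precursors, moved the other way. Its only probe (ILMN_2800505), above background on every array, read 6.36 on the wt primary array, 6.63 on Wip1Tg primary 1 and 6.86 on Wip1Tg primary 2. The secondary arrays read 5.82 and 5.59 for wt and 5.87 for Wip1Tg. All primary arrays lay above all secondary arrays, and within each passage the Wip1Tg arrays lay above the wt arrays. Secondary spheres were lower by 1.70-fold, a log2 difference of -0.77 ± 0.14 (SE, 95% interval -1.11 to -0.43, limma adjusted p = 0.0115). Within wt the difference was -0.65 (adjusted p = 0.0947) and within Wip1Tg -0.88 (adjusted p = 0.045), each again 1 array against 2 with the spread of the other groups, with no call for the difference between them (interaction -0.22, adjusted p = 0.81). The call was lost without the Wip1Tg secondary array, which leaves the wt value for passage, on the 4 arrays with Xist signal (-0.99, adjusted p = 0.0663) and without moderation (adjusted p = 0.0719).

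Dlx2, the neighbouring homeobox gene on the same chromosome, was close to background. Its tested probe (ILMN_2860959) was above background on the wt primary array (5.79), on Wip1Tg primary 2 (5.74) and on the Wip1Tg secondary array (5.34), and not on Wip1Tg primary 1 (5.09), wt secondary 1 (4.93) or wt secondary 2 (4.63). High and low arrays were thus mixed in both passages, and the passage difference of -0.54 ± 0.27 was not past the threshold (limma adjusted p = 0.184). The wt arrays differed by -1.01 between passages and the Wip1Tg arrays by -0.08, but the interaction of 0.93 ± 0.44 was not called (adjusted p = 0.55). A further Dlx2 probe and both Dlx5 probes were above background on no array, so no level can be given for Dlx5, a homeobox gene that acts downstream of Dlx1 and Dlx2 in the forebrain.

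Stmn2, which encodes a neuronal stathmin that destabilises microtubules in growing neurites, was above background in primary spheres alone. Its tested probe (ILMN_1253304) read 7.68 on the wt primary array, 6.33 on Wip1Tg primary 1 and 5.77 on Wip1Tg primary 2. On the secondary arrays it read 4.96 and 4.74 for wt and 4.97 for Wip1Tg, none above background. The passages did not overlap, the wt primary array stood clear of the others, and the secondary arrays cannot be ordered. This probe passed the detection filter through the primary arrays alone, so the limit given for the brightest Dcx probe holds here too. The passage difference was -1.95 ± 0.38 (SE, 95% interval -2.87 to -1.04, limma adjusted p = 0.0138). By the bound described for Dcx, the group mean of primary spheres was at least 2.42-fold higher in the main setting. That figure includes the wt primary array and is no minimum without it.

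The size of the Stmn2 difference turned on the wt primary array. Without it the difference was -1.08 (limma adjusted p = 0.0607), and on the 4 arrays with Xist signal it was -0.80 (adjusted p = 0.1). Without moderation of the variances the adjusted p was 0.131. Within primary spheres the difference of the Wip1Tg arrays from the wt array was -1.63, the largest genotype difference of the 9 probes within a passage. This comparison rests on a wt group of 1 array and was not called (unadjusted p = 0.00149, limma adjusted p = 0.559), nor was the interaction of 1.75 ± 0.38 (adjusted p = 0.467). The second Stmn2 probe (ILMN_1228563) was above background on no array.

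**Figure D2:**
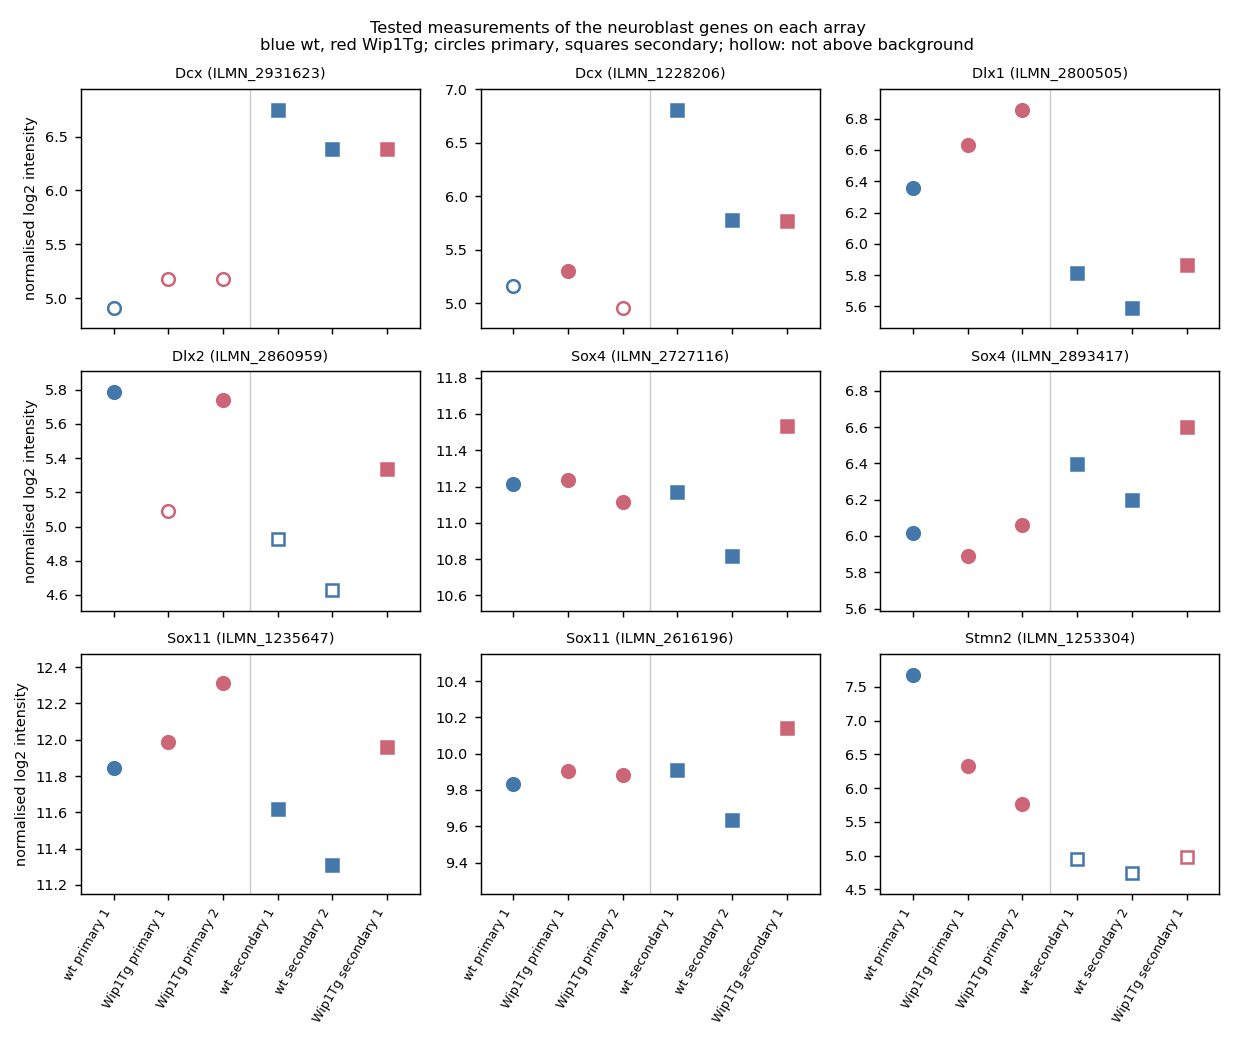
Normalised log2 intensity (vertical axes, a scale of its own in each panel) of the 9 tested probes on each of the 6 arrays (horizontal axes), with wt in blue, Wip1Tg in red, primary spheres as circles and secondary spheres as squares. Hollow symbols are not above background. The brightest Dcx probe rises from at most 5.18 to at least 6.39 between passages, Dlx1 falls from at least 6.36 to at most 5.87, and Stmn2 falls from at least 5.77 to at most 4.97.

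The brightest probes of Sox4 and Sox11, the SoxC factors that switch on neuronal genes in committed cells, were well above background in every sample. No tested probe of either gene was called in the main setting. Sox4 (ILMN_2727116) read 11.21 on the wt primary array, 11.24 and 11.11 on the Wip1Tg primary arrays, 11.17 and 10.82 on the wt secondary arrays and 11.53 on the Wip1Tg secondary array. The passages overlapped: the lowest and the highest array were both secondary. The passage difference was 0.07 ± 0.18 (95% interval -0.37 to 0.50, limma adjusted p = 0.81), and its sign turned to -0.22 when arrays were scaled to a common median instead of common quantiles. A dimmer Sox4 probe (ILMN_2893417) read 6.01, 5.89 and 6.06 on the wt primary, Wip1Tg primary 1 and Wip1Tg primary 2 arrays, and 6.40, 6.20 and 6.60 on wt secondary 1, wt secondary 2 and the Wip1Tg secondary array. There the passages did not overlap, but the difference of 0.45 ± 0.15 missed the threshold (adjusted p = 0.0623), passing it only among probes above background on all 6 arrays (adjusted p = 0.0468).

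Sox11 (ILMN_1235647) read 11.85 on the wt primary array, 11.99 and 12.31 on the Wip1Tg primary arrays, 11.62 and 11.31 on the wt secondary arrays and 11.96 on the Wip1Tg secondary array. The Wip1Tg arrays lay above the wt arrays in each passage and also across passages, since the highest wt array was at 11.85 and the lowest Wip1Tg array at 11.96. Its genotype difference of 0.40 ± 0.16 (95% interval 0.02 to 0.78) was the only one among the 9 probes with an unadjusted p under 0.05 (0.0406), and it did not pass after adjustment (limma adjusted p = 0.514). Of all tested probes, 9.51% had an unadjusted limma p under 0.05 for genotype, and the share that separates by genotype was not counted. Under median scaling this Sox11 difference was 0.18. Passage gave -0.29 ± 0.16 (adjusted p = 0.229). A second probe (ILMN_2616196) gave 9.83, 9.90 and 9.89 on the wt primary, Wip1Tg primary 1 and Wip1Tg primary 2 arrays, and 9.91, 9.63 and 10.14 on wt secondary 1, wt secondary 2 and the Wip1Tg secondary array. Its passages overlapped, and its passage difference of 0.09 ± 0.14 was of the opposite sign (adjusted p = 0.668). Its genotype difference was 0.22 (adjusted p = 0.655), and 0.0006 under median scaling. Of the other Sox11 probes, ILMN_2643394 was above background on the wt primary (5.30) and Wip1Tg secondary (5.43) arrays and ILMN_1251337 on the wt primary array alone (5.27).

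Cd24a, a surface protein gene used to sort neuroblasts, was just above background on the wt primary array (5.31) and on Wip1Tg primary 1 (5.59). The other arrays read 5.03 (Wip1Tg primary 2), 4.83 and 5.11 (wt secondary 1 and 2) and 5.05 (Wip1Tg secondary), all within background. Tubb3, class III β-tubulin, was above background on the Wip1Tg secondary array alone, at 5.67 against 4.57 to 5.07 on the other 5 arrays. Neither probe was tested.

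No tested probe of these genes passed the test for genotype. The 9 differences ranged from -0.75 (Stmn2) to 0.40 (Sox11), 7 positive and 2 negative, with adjusted p from 0.514 to 0.959 in limma. Among all fitted probes, 0% of the 18274 tested probes passed for genotype (smallest adjusted p = 0.224, 1738 probes or 9.51% at an unadjusted p under 0.05), and 0% passed for the interaction. The median genotype difference of the 9 probes was 0.13 against 0.0036 over all tested probes. The 95% intervals reached from -1.66 at the lower end (Stmn2) to 0.78 at the upper end (Sox11), so equal levels in the genotypes are not shown.

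With passage, 1 probe rose (Dcx) and 2 fell (Dlx1 and Stmn2), beside 25.5% of all tested probes, 12.9% higher and 12.6% lower in secondary spheres. The tested Dcx and Stmn2 probes entered the test through the passage in which they were high, so nothing is read from this share. Under median scaling the median passage difference of all tested probes moved to -0.23. In that setting 806 probes were called higher and 4290 lower in secondary spheres, against 2358 and 2298 in the main setting. Dcx, Dlx1 and Stmn2 kept their directions there, at 1.27, -1.03 and -2.13. Without background correction the differences shrank to 0.46 (Dcx), -0.27 (Dlx1) and -0.73 (Stmn2), and with an offset of 50 in place of 16 to 0.88, -0.52 and -1.27, and each stayed past the threshold.

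**Figure D3:**
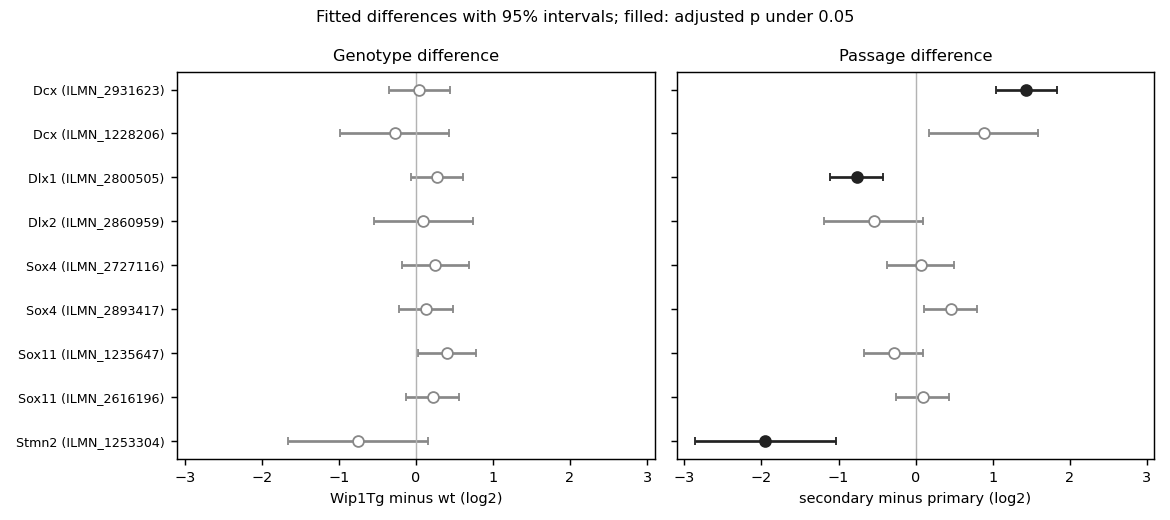
Fitted log2 differences of the 9 tested probes, Wip1Tg minus wt on the left and secondary minus primary on the right, with 95% intervals from limma. Filled points passed the adjusted p threshold of 0.05: none for genotype, and for passage Dcx at 1.43, Dlx1 at -0.77 and Stmn2 at -1.95.

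Family relatives of these genes did not all follow them. Stmn4, another stathmin of neurons, fell with Stmn2: its brightest probe read 8.63 (wt), 7.97 and 8.64 (Wip1Tg) on the primary arrays and 6.91 and 6.83 (wt) and 6.41 (Wip1Tg) on the secondary arrays. These passages did not overlap, and the difference was -1.83 ± 0.20 (limma adjusted p = 0.00173). Stmn1, a stathmin of dividing cells, and Stmn3 gave -0.50 and -0.32 (adjusted p = 0.105 and 0.309), with Stmn1 past the threshold under median scaling (-0.84).

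Dclk1, the doublecortin-like kinase, differed by -0.89 ± 0.23 (limma adjusted p = 0.0329), opposite in sign to Dcx. Its 3 tested probes ranged from -0.89 to -0.03, and the call was lost without any of Wip1Tg primary 1 (-0.75, adjusted p = 0.0622), Wip1Tg primary 2 (-0.92, adjusted p = 0.0608), wt secondary 1 (-0.86, adjusted p = 0.0797) or the Wip1Tg secondary array (-0.50, adjusted p = 0.255), and with the probes averaged (-0.50, adjusted p = 0.23). Dclk2 gave -0.05 (adjusted p = 0.831). The β-tubulins Tubb2a and Tubb2b gave 0.21 and 0.21 (adjusted p = 0.283 and 0.265), both turning negative under median scaling, and the 2 Tubb5 probes gave -0.41 and 0.67, with adjusted p = 0.0687 for the brighter. The brightest probe of Sox12, the remaining SoxC gene, gave -0.35 (adjusted p = 0.115), but its 3 tested probes ranged from -0.48 to 0.35. Without background correction, under median scaling and with trended variances both the brighter Tubb5 probe (adjusted p = 0.016, 0.0104 and 0.00767) and this Sox12 probe (0.0443, 0.0317 and 0.0492) passed. Dlx6 was above background on no array.

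Among 41 further regulators of neuronal commitment, 37 had a named probe and 17 were tested, each by its brightest probe. With passage 2 rose and 3 fell, beside 13.2% higher and 14% lower (27.2% in all) over 10167 tested named genes, and the median passage difference was -0.22 against 0.031 over those genes. Pou3f4, a POU-domain factor, rose by 0.79 ± 0.14 (limma adjusted p = 0.00937). Hes6, a HES family member that promotes neurogenesis, rose by 0.57 ± 0.15 (adjusted p = 0.0369). The ETS factor gene Etv1 fell by 0.70 (adjusted p = 0.0282), the homeobox gene Gsx1 of ventral forebrain progenitors by 0.66 (adjusted p = 0.045), and Bcl11b, a factor of striatal and cortical neurons, by 0.88 (adjusted p = 0.0452). The 3 falls became 0 without the wt primary array, without Wip1Tg primary 2 or without the Wip1Tg secondary array, 1 without Wip1Tg primary 1 and 2 without wt secondary 2. The 2 rises became 0 without the wt primary array and 1 without either wt secondary array or the Wip1Tg secondary array. On the 4 arrays with Xist signal neither direction held a call. Under median scaling 1 rose and 7 fell, and Hes6 lost its call at 0.28. Hes6 also lost it with no filter on dim probes. With 1 array left out, Hes6 was called only without Wip1Tg primary 1, and Etv1 only without wt secondary 2. For genotype none passed, and the smallest unadjusted p values belonged to Bcl11a (0.65), Myt1 (0.56) and Elavl2 (0.49). Neurod1, Eomes, Tbr1, Pax6, Gsx2 and 7 others were above background on no array.

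The list of neuroblast migration and cytoskeleton genes was measured more completely, with 36 of 40 tested. With passage 4 rose and 12 fell, beside 13.2% higher and 14% lower over all named genes, with a median of -0.28 against 0.031. Gap43, which encodes a growth cone protein, read 10.98 (wt), 10.40 and 11.07 (Wip1Tg) in primary spheres, against 8.40 and 8.17 (wt) and 8.56 (Wip1Tg) in secondary spheres. Its passages did not overlap, with a difference of -2.43 ± 0.22 (limma adjusted p = 0.00109). The small GTPase genes Rnd3 and Rnd2, which both act in the migration of cortical neurons, moved in opposite directions, by -1.87 ± 0.13 and by 1.74 ± 0.15 (adjusted p = 0.000465 and 0.000895).

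Igfbpl1, a gene of early neuroblasts, fell by 1.89 ± 0.27 (limma adjusted p = 0.00467), and Gad2, an enzyme of GABA synthesis, by 2.03 (adjusted p = 0.00546). Gad1, the other enzyme of GABA synthesis, gave 0.017 (adjusted p = 0.941). The interneuron gene Calb2 entered the test through primary spheres alone, with no secondary array above background. By the bound described for Dcx, its group mean was at least 3.15-fold higher in primary spheres in the main setting. Mapt, Dab1 and Nrxn3 rose, by 0.53, 0.90 and 1.14. The genes of this paragraph so far, and Gsx1 and Bcl11b above, were chosen for mention after their values were seen. The count of 12 falls became 6 without the wt primary array, 7 without the Wip1Tg secondary array, 8 among probes above background on all 6 arrays and 5 on the 4 arrays with Xist signal. The 4 rises became 2 without the wt primary array, Wip1Tg primary 1 or wt secondary 1, 1 without the Wip1Tg secondary array and 2 under median scaling. Genotype was called for none of the list, whose median was 0.08 against 0.0029 over all named genes, with the smallest unadjusted p values for Rnd3 (0.60), Map1b (-0.59) and Stmn1 (0.64).

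Of 20 genes of mature neurons, 16 had a named probe and 10 were tested, and 5 rose and 2 fell with passage, beside the same 13.2% and 14% (median 0.13 against 0.031). Under median scaling 3 rose and 3 fell. The 5 rises became 3 without the wt primary array, wt secondary 1 or the Wip1Tg secondary array, and the 2 falls became 1 without either Wip1Tg primary array, wt secondary 1 or the Wip1Tg secondary array. On the 4 arrays with Xist signal 1 rose and 1 fell. Gria2, a glutamate receptor subunit, rose by 1.70 and Camk2a, a synaptic kinase, by 1.25 (limma adjusted p = 0.00205 and 0.00171), while Nefm, a neurofilament of growing axons, fell by 2.16 (adjusted p = 0.000907). Camk2a was above background on only 1 primary array and Nefm on only 1 secondary array, so these sizes rest partly on values within background. Camk2a lost its call on the 4 arrays with Xist signal (1.01). For genotype Rbfox3 (-0.67), Nefm (-0.41, with 0.099 for its other tested probe) and Syn2 (0.29) had the smallest unadjusted p values, and none passed. Syt1, Snap25, Nefl, Slc17a6 and Slc32a1 were above background on no array.

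**Figure D4:**
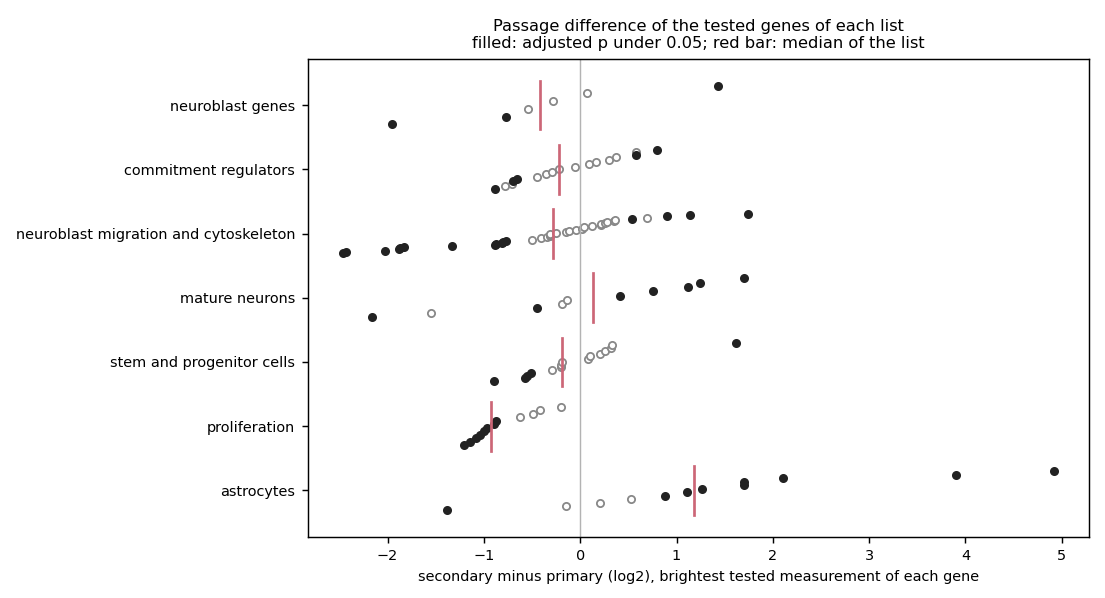
Passage difference (log2, secondary minus primary) of the brightest tested probe of each gene, by list, with filled points past the adjusted p threshold of 0.05 and a red bar at the list median. The medians lie at -0.22 for commitment regulators, -0.28 for migration and cytoskeleton genes, 0.13 for mature neurons, -0.93 for proliferation genes and 1.18 for astrocyte genes.

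Markers of other cell types and states moved with passage beside these genes, and their part in the results was not tested. The shares over all named genes, 13.2% higher and 14% lower, stand beside each of the following counts. Of 12 astrocyte genes, 8 rose and 1 fell. The rises include S100b, which was above background on the secondary arrays alone and entered the test through them. The summed corrected intensity of the 12 genes was 64530 to 75940 on the primary and 112000 to 127300 on the secondary arrays. In this and the following sums the brightest probes weigh most, and Slc1a3 counts in both the astrocyte and the stem and progenitor list. Slc39a12, Gjb6 and Aldoc rose by 3.90, 4.92 and 2.11. Gfap fell by 1.38, a call lost without the Wip1Tg secondary array, and 7 or 8 rises were called without any 1 array and 7 on the 4 arrays with Xist signal.

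Of 12 tested proliferation genes, 8 fell and 0 rose, among them Cdc20 (-1.20), Aurka (-1.14) and Birc5 (limma adjusted p = 0.00658), with sums of 9248 to 14140 in primary and 3787 to 7830 in secondary spheres. The 8 falls became 1 without the wt primary array, 3 without the Wip1Tg secondary array and 0 on the 4 arrays with Xist signal. By their brightest probes all 12 were higher in Wip1Tg, with a median of 0.63 against 0.0029 over all named genes and 0 past the threshold. The tested Mcm6 probes ranged from -0.21 to 0.53. The share of all named genes higher in Wip1Tg was not counted. Top2a (0.92), Mcm2 (0.68) and Rrm2 (0.70) had the smallest unadjusted p values. Within each passage every Wip1Tg sum lay above the wt sums.

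Of 15 tested stem and progenitor genes, 1 rose (Hes5, by 1.62) and 4 fell, including Vim (-0.90) and Ccnd1 (-0.56), with sums of 116700 to 126700 in primary and 99950 to 106600 in secondary spheres. The 3 tested Ccnd1 probes ranged from -0.56 to 0.13, and its call was lost with the probes averaged (-0.28, limma adjusted p = 0.125). The 4 falls became 0 without the wt primary array, 1 without Wip1Tg primary 1 and 2 without any of the others, and neither direction held a call on the 4 arrays with Xist signal. Msi1 and Pax6 of that list were above background on no array. Of 10 oligodendrocyte lineage genes, 0 rose and 2 fell, Pdgfra (-0.95) and Sox10 (-1.03), while Cspg4 (-0.48) did not pass. Their sums were 31590 to 33760 and 34590 to 40970, and Mog was above background on no array. These sums are mostly Olig1, which read 14.63 to 15.06 over the arrays and was not called (0.24, limma adjusted p = 0.222). The 2 falls became 0 without the wt primary or the Wip1Tg secondary array and 1 without either wt secondary array or on the 4 arrays with Xist signal. Sox10 also lost its call with no filter on dim probes, with trended variances and with genotype left out of the model.

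Of 5 tested ependymal genes, 3 fell (Tppp3, Cfap126 and Rsph1), with sums of 723.3 to 1170 and 441.1 to 556.1, and 4 of 11 with a named probe were above background nowhere. None of these 3 was called without the wt primary array or on the 4 arrays with Xist signal, where 1 other gene of the list was called. Of 11 microglial and immune genes with a named probe, 8 were above background on no array, among them Cx3cr1 and C1qa, and none of the 3 tested passed (P2ry12 -0.89, Aif1 0.30, Csf1r 0.035), though P2ry12 passed without Wip1Tg primary 2, under median scaling, with an offset of 50, with trended variances and with genotype left out of the model. Of 8 endothelial genes, Flt1 alone was tested and fell by 1.96, a call lost on the 4 arrays with Xist signal, while Pecam1, Cdh5 and Cldn5 were above background on no array. For genotype, the smallest unadjusted p values in these lists belonged to Gfap (-0.84), Slc1a2 (-0.55) and Glul (-0.48) among astrocyte genes, to Mag (-1.71), Mbp (-1.76) and Mal (-0.60) in the oligodendrocyte lineage, to Tppp3 (-1.13), Foxj1 (-0.52) and Dynlrb2 (0.29) among ependymal genes and to Hes5 (0.71), Sox2 (-0.29) and Nes (0.54) among stem and progenitor genes, and none passed. Csf1r (-0.33), Aif1 (-0.048), P2ry12 (-0.024) and Flt1 (-0.63) did not pass for genotype either. Genotype differences of the tested Slc1a2, Mbp and Sox2 probes ranged up to 0.21, 0.037 and 0.29, opposite in sign to their brightest probes.

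The genes with profiles most like the brightest tested probe of each gene were taken by Pearson r over the 6 arrays, among about 2500 named genes with a range of at least 1 on the log2 scale. They were Dock4, Prkcq and Ctns for Dcx (r = 0.996 for each), Troap, Ppp2r5c and Klhl15 for Dlx1 (0.993 to 0.994), and Epop, Sorcs1 and Elfn1 for Dlx2 (0.942 to 0.981). For Sox4 they were Lin7c, Lrrc40 and Ninj1 (0.957 to 0.975), for Sox11 Asf1b, Lsm2 and Chaf1a (0.987 to 0.991), and for Stmn2 Garnl3, Rfx2 and Sema3f (0.991 to 0.996). With 6 arrays of 2 passages such values describe a shared profile over the same arrays and carry no test.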

How the data were processed

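Per the file headers, the authors deposited a non-normalized table with 1 intensity and 1 detection p-value per probe and array (45281 probes, 6 arrays). The deposited intensity values are linear and not background-subtracted, as the values show. The authors' deposited value table holds intensities whose columns share the median 161.6 and rank as the non-normalized ones (rank correlation 1); the sources used here name no scanner software. Background correction, quantile normalization and log2 were done with neqc of limma 3.58.1 (R 4.3.3, offset 16, background taken from the detection p-values). Probes with detection p under 0.05 on at least 3 of 6 arrays were fitted (18274). Genotype and passage entered the limma model additively (3 residual degrees of freedom), and a second model held their interaction (2), in which groups of 1 array take the spread of the others. Adjusted p-values are Benjamini-Hochberg over all fitted probes, with a threshold of 0.05. The code of the fit was also run on simulated independent values with added differences larger than those called for the genes described here. That run does not bear on smaller differences or on replicates that are not independent.

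Of the probes, 34885 had 1 symbol in the platform annotation, 18 several and 10378 none. A list gene stands by its brightest tested probe, and lists are described, not tested. The text names every probe of the 9 genes, their family relatives, and from each other list the 3 genes of smallest p for genotype and for passage, with fuller account of the neuronal lists. The members and lists were chosen with earlier results of these data known. Alternatives were other normalizations, offsets, filters, gene summaries and variance models, leaving out each array, and the 4 arrays with Xist signal. The number of arrays limits the precision.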

Additional observations from a re-analysis of the deposited data

Results flagged for a closer look

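Tubb3, which no comparison used, had a signal above background on the Wip1Tg secondary array, at a log2 intensity of 5.67 (5.6685), above the highest wt array at 5.07. Chosen as a signal in unused data above the control samples, it rests on 1 array and 1 probe, and no other array was above background.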

How the results depend on the processing

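No paired analysis was possible because wt and Wip1Tg arrays of 1 passage share fewer than 2 replicate numbers. Interaction calls (0) became 11 without background correction, 11 in the deposited value table, 16 with median scaling, 2 with offset 50, 1 with detection on all 6 arrays, 12 with trended robust variances and 0 to 5 when an array was left out. The interaction cannot be fitted without the wt primary or the Wip1Tg secondary array. Genotype calls (0) became 2 with median scaling and 2 with trended robust variances. Passage calls (4656) became 1016 without moderation, 1470 on the 4 arrays with Xist signal and 1775 (no Wip1Tg secondary array) to 3951 with an array left out. Member probes higher in secondary spheres (1) became 2 with trended robust variances or with genotype left out, 0 without moderation or on the 4 arrays with Xist signal, and 1 to 2 with an array left out (the second Dcx probe passes without wt secondary 2). Those lower (2) became 1 with detection on all 6 arrays, 0 without moderation or on the 4 Xist arrays, and 1 to 2 with an array left out.

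Signs that turned belong to differences not past the threshold. Under median scaling, genotype gave -0.024 (Dcx), -0.018 (Dlx2) and -0.048 (dimmer Sox4 probe), and passage -0.22 (Sox4), -0.23 (second Sox11 probe), -0.11 (Tubb2a), -0.12 (Tubb2b) and -0.0055 (Csf1r). Dcx genotype was also -0.0019 with offset 50, -0.12 with probes averaged, -0.44 with passage left out and -0.18 on the 4 Xist arrays. With passage left out, genotype gave -0.018 (dimmer Sox4 probe), -0.087 (Syn2), 0.31 (Nefm), 0.27 (P2ry12) and 0.024 (Flt1). Sox4 passage was -0.015 with genotype left out, and Tubb5 passage 0.13 with probes averaged. On the 4 Xist arrays genotype gave 0.12 (Stmn2), 0.38 (P2ry12) and 0.11 (Flt1), and passage -0.30 (Csf1r). Leaving out an array gave genotype ranges of -0.18 to 0.26 (Dcx), -0.37 to 0.56 (Dlx2), -0.038 to 0.54 and -0.038 to 0.30 (Sox4 probes), -1.63 to 0.12 (Stmn2), -0.43 to 0.38 (P2ry12), -1.37 to 0.11 (Flt1), -0.13 to 0.027 (Aif1), -0.26 to 1.34 (Nes), -1.05 to 0.0065 (Foxj1) and -0.27 to 0.84 (Dynlrb2). It gave passage ranges of -0.22 to 0.36 (Sox4), -0.063 to 0.25 (second Sox11 probe), -0.12 to 0.19 (Csf1r) and -0.23 to 0.13 (Dclk2), and -1.01 to 0.016 for the interaction of the second Dcx probe. The causes were not tested. Of the differences of single probes, 1498 values over the alternatives kept direction and side of the threshold, including those called in neither setting. Beside them, 45 turned sign, 86 lost a call and 23 gained a call. Signal over background limits Dcx, Dlx2, Stmn2, Cd24a and Tubb3.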
